A study of Mus musculus with 44 samples.

Results

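Open chromatin was compared in silenced mouse cortical neurons after 10 min with FHT1015, a small molecule that the labels describe as an inhibitor of the ATPase of the BAF complex, and after 10 min with its vehicle. The comparison holds 4 of the 44 libraries of an ATAC-seq series on BAF, chosen by their labels: 2 libraries with 100 nM FHT1015 and 2 with 0.1% DMSO. All 4 came from unmodified primary neurons of the cortex at E16.5, grown for 7 days in vitro and left without added KCl. All wells, controls included, had been silenced overnight with tetrodotoxin, which blocks sodium channels, and D-AP5, which blocks NMDA receptors. DNase was in the wells for 30 min alongside the treatment, and the labels do not state how that time and the 10 min of treatment relate. The other 12 libraries of the drug experiment had 30 min of treatment, or depolarization with 50 mM KCl, with the same doses. They served to estimate the spread and to follow the regions found here in other samples. The labels take each embryo's cortex as a biological replicate but tie no library to its own embryo, so p-values measure the spread between these libraries, which may be partly technical.

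BAF complexes (also called SWI/SNF) use ATP to slide or evict nucleosomes, through 1 of 2 alternative ATPases, Smarca4 (BRG1) and Smarca2 (BRM). Neurons carry a form of the complex with neuron-specific subunits such as Actl6b, and BAF is known chiefly for keeping enhancers open, where transcription factors recruit it. ATAC-seq reads DNA that a transposase can reach, so a peak marks a stretch with few or displaced nucleosomes. In a culture of mixed cells, fewer cells of a type and less open DNA per cell cannot be told apart.

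The cultures carried open regions at the genes of neurons. Only regions within 1 kb of a start or end of the gene were counted. Such a region was among the 20000 strongest summits of both DMSO libraries for 5 of 7 autosomal general neuron markers. The same held for 2 of 5 excitatory markers, Camk2a and Neurod6. No inhibitory neuron marker (0 of 6), vascular marker (0 of 5) or microglia marker (0 of 5) met that limit. The count was 1 of 5 for astrocyte, 1 of 5 for oligodendrocyte lineage (Olig2) and 2 of 5 for progenitor markers. These counts were 6, 2, 0, 0, 0, 0, 1 and 3 with FHT1015, in the order general neuron, excitatory, inhibitory, vascular, microglia, astrocyte, oligodendrocyte and progenitor.

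Fewer intervals, covering less of the genome, were called open after 10 min of the inhibitor. The autosomal lists held 269419 and 261506 intervals with DMSO against 194928 and 172399 with FHT1015. The groups did not overlap, and the mean was 30.8% lower with the drug (183664 ± 15930 against 265462 ± 5595, SD, n = 2 each). Covered length was 119.8 and 114.2 Mb with DMSO against 95.0 and 83.5 Mb with FHT1015, or 23.7% lower. With 2 against 2 libraries, the exact permutation test (two-sided) cannot go below p = 0.333, the value it gave for intervals, summits and covered length. The background pileup, a measure of depth in reads per base, overlapped between the groups, at 8.29 and 5.93 with DMSO and 7.45 and 6.29 with FHT1015. Libraries of the same group correlated at r = 0.982 over the regions described below, and libraries of different groups at 0.921 to 0.922.

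The shape of the intervals differed as well. Mean width was 445 and 437 bp with DMSO and 487 and 484 bp with FHT1015, while median width was 293 and 288 bp against 262 and 258 bp. There were 1554 and 1221 intervals over 3 kb with FHT1015, against 989 and 914 with DMSO, although the lists with FHT1015 were shorter. An interval held 1.64 and 1.66 summits with FHT1015 against 1.41 and 1.40 with DMSO. All these measures separate the groups without overlap, again at the smallest exact p of 0.333.

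**Figure D1:**
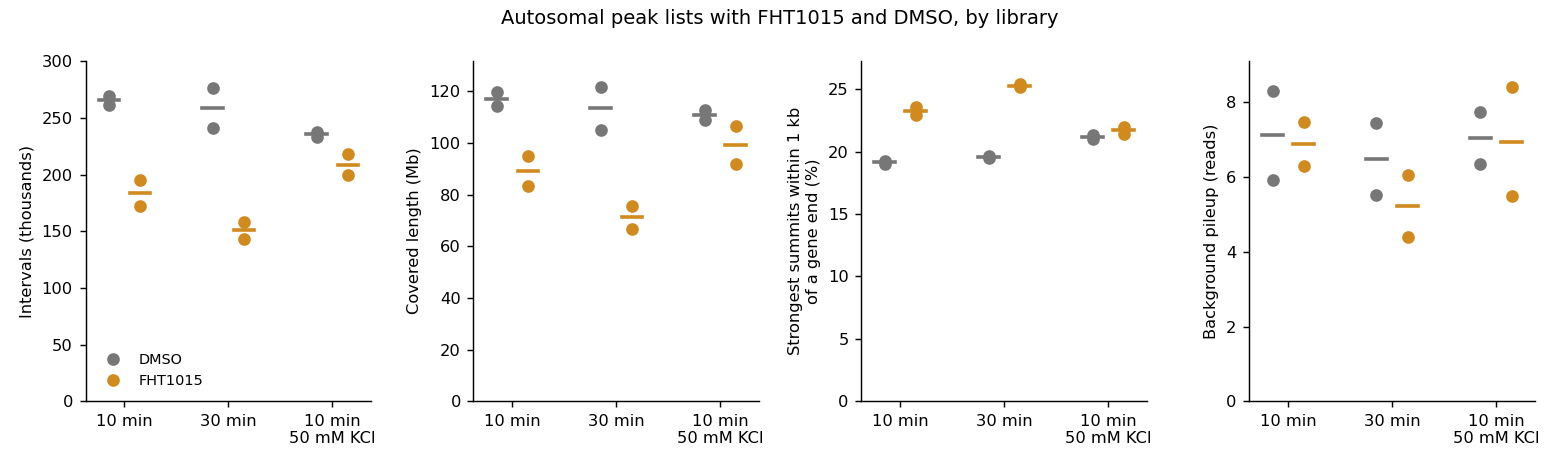
Intervals, covered length (Mb), share of the strongest 233609 summits within 1 kb of a gene end (%) and background pileup (reads per base) in the autosomal lists of each library, for the unstimulated 10 and 30 min groups and the depolarized 10 min group. Points are libraries and bars are means of 2; with 10 min of FHT1015 in silenced neurons intervals and covered length lie below both DMSO libraries and the gene end share above them, while background pileup overlaps.

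More of the strongest summits lay at genes. Among the 233609 strongest summits of each library, the length of the shortest list of the drug experiment, 22.9% and 23.6% were no more than 1 kb from a start or end of a protein-coding gene with FHT1015, against 19.0% and 19.3% with DMSO. The share over 100 kb from any gene end was 14.6% and 14.3% against 18.9% and 18.8%. Both shares separate the groups. The gain at gene ends was 4.11 percentage points over these lists, 6.61 over the 75000 strongest summits and 8.67 over the 30000 strongest.

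To follow single places, each library's summits were ranked by the −log10 p of the authors' peak caller, with 1 as the strongest, and 81005 regions (windows of 250 bp to either side of a strong summit) were scored as the log2 of the list length divided by the rank. A change of -1 means that the rank number doubled, and a region rose or fell where limma gave an adjusted p under 0.05 over all regions. With 10 min of FHT1015, 32419 regions were called (40.0% of those tested), of which 9787 rose (12.1%) and 22632 fell (27.9%). Falls were larger: the median size was 0.87 for falls and 0.63 for rises, and 35.3% of falls but 9.13% of rises were larger than 1. No summit of the list length remained in either FHT1015 library at 434 of the fallen regions, and none was present in either DMSO library at 300 of the risen ones.

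Ranks are relative, and the balance of rises and falls depends on what is ranked. Rises made up 30.2% of calls with summits, 55.5% when merged intervals were ranked (13458 rises and 10772 falls, 29.9% called) and 49.2% when regions were ranked only among themselves (17307 and 17888, 43.4% called), with a median change over all regions of -0.06, 0.05 and 0.03. Of the 9787 rises, 4924 were also called as rises with intervals and 9042 with ranks among regions. For the 22632 falls these numbers were 9999 and 17723, and 255 calls had opposite signs with intervals. Statements on direction below are therefore read against regions of other kinds. Without the second FHT1015 library the number of calls was 20889.

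Regions far from genes fell most often. Of 21341 regions at gene ends (within 1 kb), 18.4% rose and 6.25% fell, with a median change of 0.16. Of 48361 distal regions (1 to 100 kb from the nearest gene end), 11.0% rose and 33.7% fell, with a median of -0.16. Of 11303 regions over 100 kb away, 4.73% rose and 44.4% fell, with a median of -0.45. The order of the medians was the same with intervals (0.14, 0.01 and -0.15) and with ranks among regions (0.20, -0.01 and -0.19). With intervals, however, 18.9% of distal regions rose and 16.4% fell, so the preponderance of falls among distal regions within 100 kb holds for summits and not for intervals. Distal regions inside and outside genes had similar shares fallen, 33.2% and 34.3% with summits and 16.4% and 16.5% with intervals. Rises were 10.9% and 11.2% with summits, but 16.6% inside and 22.4% outside genes with intervals.

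The share fallen grew with distance up to 100 kb and was greatest at intervals of moderate width. The share fallen was 21.2% at 1 to 10 kb from a gene end, 41.1% at 10 to 50 kb and 46.5% at 50 to 100 kb. With intervals these shares were 10.0%, 20.6% and 22.2%, lower but in the same order. By the width of the interval in the DMSO 30 min libraries, which take no part in the comparison, 46.6% of regions in intervals of 500 to 1000 bp fell and 3.93% rose. In intervals over 3 kb, 6.25% fell and 27.4% rose. Among distal regions alone, 49.3% fell at 500 to 1000 bp and 7.87% over 3 kb. When intervals were ranked, falls were again most frequent at 500 to 1000 bp (19.7%, against 3.77% over 3 kb). The rises had another order with that unit: 34.3% under 500 bp, 10.7% at 500 to 1000 bp and 14.4% over 3 kb. The gain of rises in the widest intervals was thus mainly a feature of summit ranks.

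**Figure D2:**
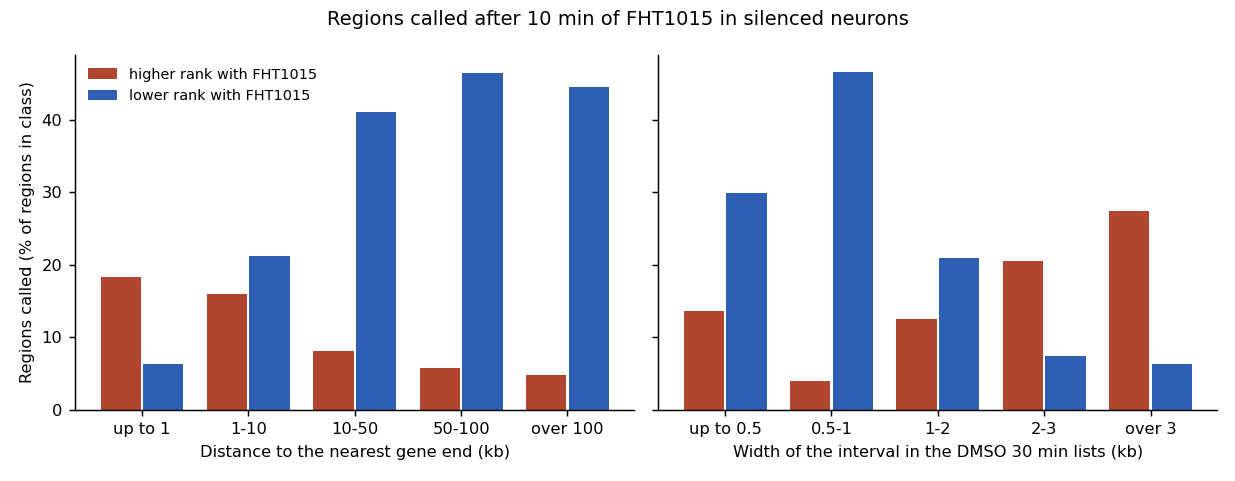
Share of regions called higher or lower in rank (%, limma, adjusted p under 0.05) after 10 min of FHT1015, by distance to the nearest gene end (kb, left) and by the width of the interval in the DMSO 30 min lists (kb, right). With summit ranks, falls go from 6.25% of regions at gene ends to 46.5% at 50 to 100 kb, and rises from 3.93% in intervals of 500 to 1000 bp to 27.4% in those over 3 kb.

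Distal regions fell more often than gene ends at the same strength. Using ranks in the DMSO 30 min libraries, 38.6% of distal regions at ranks 5000 to 20000 fell, close to the 39.4% at ranks 20000 to 75000. At the same ranks, 5.78% and 8.32% of gene end regions fell. With intervals the shares were 24.2% and 17.7% of distal regions and 2.90% and 3.53% of gene end regions. Among the 1000 strongest, 5.10% of 785 gene end regions and 4.42% of 113 distal regions fell.

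Among distal regions nearest to a gene of the lists used here, the named falls, among the largest, were near Kcna1, Pdgfra, Camk2b, Rbfox3, Rgs2 and Bcl11b. These, and the regions named below for the largest rises and falls, were chosen for the size of the change at 10 min. Those values therefore run high. The choice also required the same sign of call with intervals and no overlap between the groups, so neither counts as support. The libraries at 30 min give the regions again in other samples. A region inside Camk2b, the beta subunit of the calcium/calmodulin kinase CaMKII, at chr11:6030586-6031086 (GRCm38), ranked 16628 and 17516 with DMSO and 55695 and 59087 with the drug. The authors' fold enrichment there was 41.4 and 39.4 against 15.5 and 13.0. The groups did not overlap, as the choice required, and the change was -1.75 ± 0.18 (SE, limma, adjusted p = 2.5e-05). At 30 min the region ranked 20930 and 16101 with DMSO and 124290 and 117140 with FHT1015.

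A region at chr11:118916536-118917036, 5189 bp outside Rbfox3, the splicing factor known as NeuN, ranked 23892 and 23563 against 76297 and 76558. By the same choice the groups did not overlap, and the change was -1.69. At 30 min it ranked 34584 and 40710 against 119872 and 90423.

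Weaker regions left the top of the list altogether. A region 50416 bp from Kcna1, the potassium channel Kv1.1, ranked 41307 and 55875 with DMSO and 155418 and 222728 with FHT1015. A region 14667 bp from Rgs2, a regulator of G protein signalling, ranked 74312 and 72601 with DMSO and lay beyond rank 233609 in both FHT1015 libraries. For a region inside Bcl11b (Ctip2, a transcription factor of deep-layer neurons), ranks of 68370 and 68788 became 201221 and beyond the list. A region 49332 bp from Pdgfra, the receptor that marks oligodendrocyte precursors, went from 58917 and 45919 to 162578 and 194833. The changes at these 4 regions were -1.95, -1.67, -1.66 and -1.77, and no groups overlapped, as the choice required. At 30 min each of the 4 fell as well (-1.28 to -1.89), with no summit in either FHT1015 list at Kcna1 and Rgs2. With lists of 75000 summits, which end near their DMSO ranks, the values near Rgs2 and Bcl11b were -0.03 and -0.13 and did not pass.

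**Figure D3:**
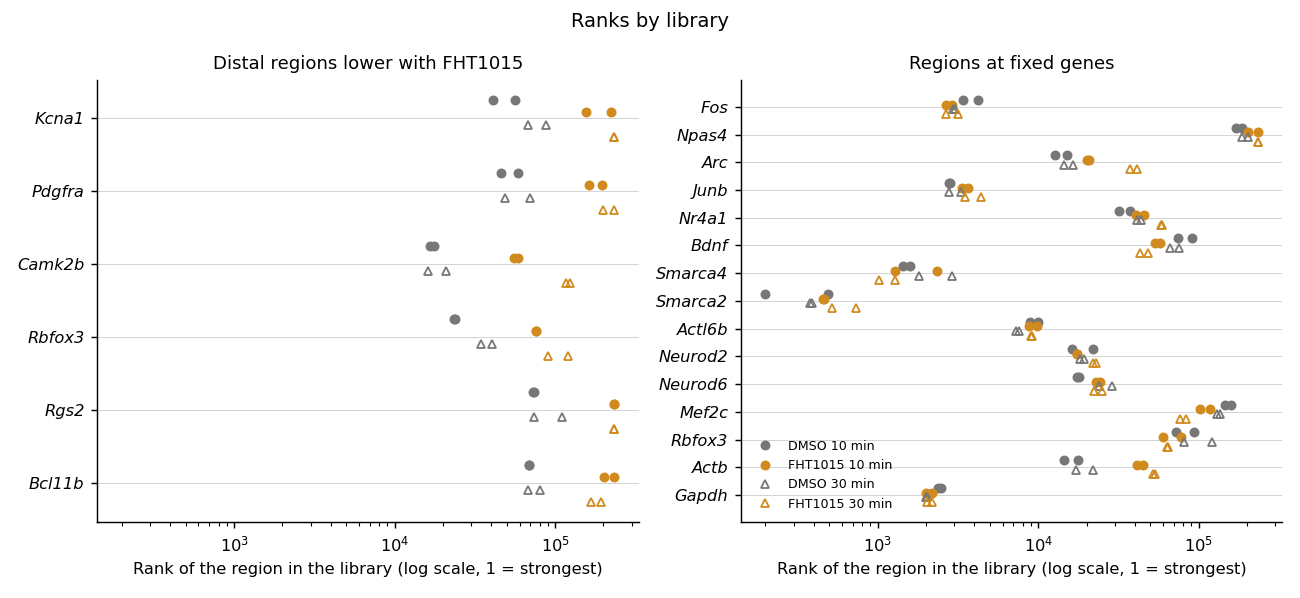
Rank of each region in each library (log scale, 1 is the strongest; a region without a summit in the list is drawn at its end, 233609) for the 6 named distal regions that fell near listed genes (left) and for regions at fixed genes (right). Circles are 10 min and triangles 30 min, 2 libraries per group, all unstimulated; the Camk2b region moves from 16628 and 17516 with DMSO to 55695 and 59087 with FHT1015 at 10 min, and has 124290 and 117140 with FHT1015 at 30 min.

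At gene ends, 7 regions are named for the largest falls. The region 65 bp from the start of Amz1, a metallopeptidase gene, ranked 16665 and 19920 with DMSO and 84523 and 57203 with FHT1015, a change of -1.93 ± 0.20 (SE, limma, adjusted p = 2.2e-05). The region 97 bp outside Faap20, of the Fanconi anaemia core complex, ranked 14467 and 13442 against 53371 and 59412. The groups did not overlap at either, as the choice required. The largest falls also included regions at Mapkapk3, a kinase downstream of p38 (-1.85), Chia1, an acidic chitinase (-1.87), Saa3, an acute-phase protein (-1.89), R3hdml (-1.82) and Mymk, which fuses myoblasts (-1.75). All 7 fell at 30 min too, by changes of -0.77 to -3.15.

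The named distal rises near listed genes were at weak regions close to genes. A region 2454 bp from Sox2, a factor of neural progenitors, lay beyond the list in both DMSO libraries and ranked 108596 and 97633 with FHT1015. A region 2431 bp from Fabp7, a fatty acid binding protein of radial glia, lay beyond the list and at 193128 with DMSO and ranked 98260 and 95273 with the drug. A region 1270 bp from Id3, which inhibits basic helix-loop-helix factors, lay at 206855 and beyond the list against 90083 and 79007. No groups overlapped, as the choice required, and the changes were 1.18, 1.13 and 1.38. At 30 min these 3 rose by 1.45, 2.17 and 1.85. With lists of 75000 summits the change at all 3 was 0, since the lists end before these ranks.

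The remaining named distal rises were near Erbb4 (a neuregulin receptor, 1.28), Nefm (neurofilament, 1.26) and Dlx6 (a factor of inhibitory neurons, 1.10). The Erbb4 region had no summit in the second DMSO library and ranked 81938 in the first. The Erbb4 call was lost under 8 of 14 other settings. Without the second DMSO library its change was 0.53 (limma, adjusted p = 0.35), and without the first or the second FHT1015 library the adjusted p was 0.071 and 0.11. At 30 min these 3 rose by 1.59, 1.49 and 1.17. With lists of 75000 summits the values near Erbb4 and Nefm were 0.40 and 0 and did not pass.

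Several of the largest rises at gene ends were summits that had no separate counterpart in the DMSO libraries of 10 min. Neither of these had a summit within 250 bp of the region 489 bp outside Atf2, a factor of the CREB family, at chr2:73892916-73893416, which ranked 16985 and 17358 with FHT1015. The same held at Fasn, the fatty acid synthase (33982 and 35647 with FHT1015), Atp13a1, an ATPase of the endoplasmic reticulum (60638 and 49763), and Ppp1r12a, a subunit of myosin phosphatase (58080 and 75626). With intervals, these 4 changes were 0.52, 0.80, 0.42 and 0.33 rather than 3.77, 2.75, 2.09 and 1.82. Other DMSO libraries did hold summits there. At 30 min they ranked 56148 and 76627 at Atp13a1, 75365 and 93094 at Ppp1r12a and 87041 in the first library at Atf2, and in depolarized neurons 54404 and 73977 at Atp13a1 and 24715 and 22613 at Atf2. The Fasn region had no summit in these 4 DMSO libraries. At 30 min the rises at Atf2 and Fasn were 1.86 and 2.25, the value at Atp13a1 was 0.17 (adjusted p = 0.71), and Ppp1r12a fell by 1.48.

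Other gene end rises were at summits present in all 4 libraries. The region at the start of Kpnb1, the nuclear import receptor importin beta, ranked 604 and 641 with DMSO and 153 and 143 with FHT1015, a change of 2.07 ± 0.49 (SE, limma, adjusted p = 0.0040) and of 2.16 with intervals. With the number of summits as a covariate it was 1.54 and did not pass (adjusted p = 0.078). The region 190 bp outside Phf12, a chromatin-binding protein, ranked 711 and 773 against 234 and 156. At Akt1s1, a substrate of the kinase AKT, ranks went from 128884 and 129313 to 33220 and 31478. No groups overlapped at these 3, as the choice required. The Akt1s1 call was lost under 8 of 14 other settings. At 30 min Kpnb1 rose by 1.53, while Phf12 (0.64, adjusted p = 0.18) and Akt1s1 (0.66, adjusted p = 0.41) did not pass. The groups overlapped there at both. Phf12 ranked 192 and 467 with DMSO and 197 and 188 with FHT1015 at 30 min. Akt1s1 had no summit in the first DMSO library and ranked 20909 in the second, against 45806 and 42829 with FHT1015.

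With summits, rises were called more often beside start sites than on them. Within 200 bp of a listed start, 8.04% of 8772 regions rose and 7.32% fell. At 200 to 500 bp 23.7% rose, and at 500 to 1000 bp 28.3% rose and 4.15% fell. The rise was present on both sides: 35.8% of regions rose at 600 to 800 bp upstream and 27.7% at 400 to 600 bp downstream. With intervals, which give the start and its flanks the same rank where they merge, 12.3% rose in the 200 bp upstream of the start and 14.0% in the 200 bp downstream. Further upstream the share with intervals was between 12.5% (at 600 to 800 bp) and 16.8% (at 800 to 1000 bp) from 200 to 1000 bp, and between 19.0% and 27.8% from 1000 to 2000 bp. Downstream it was between 10.8% and 13.9% from 200 to 1000 bp. A higher share upstream was thus present with both units, by less and farther from the start with intervals, and the higher share downstream within 1 kb was seen with summits and not with intervals. The lists with FHT1015 held more summits per interval, and the part of that number in the result was not tested.

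**Figure D4:**
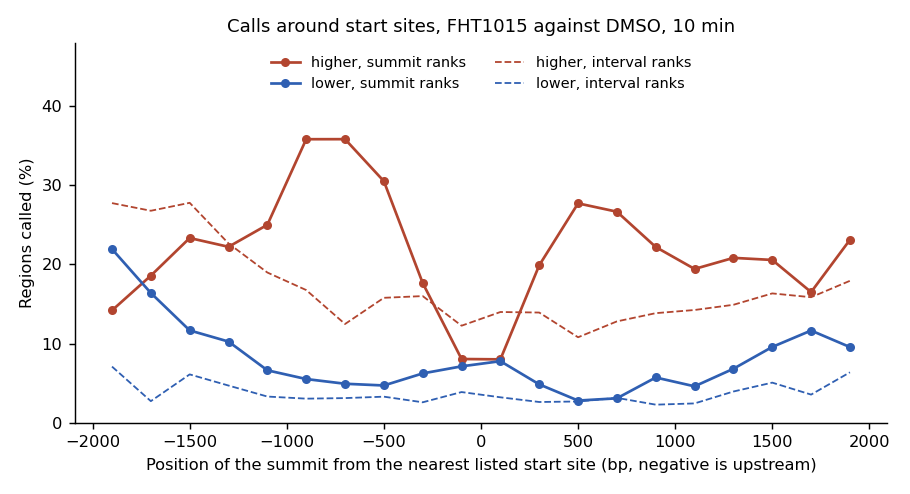
Share of regions called higher or lower (%) after 10 min of FHT1015 in bins of 200 bp around the nearest listed start site, with distance in bp and negative values upstream; solid lines are summit ranks and dashed lines interval ranks. With summits, rises go from 8.05% in the 200 bp upstream of the start to 35.8% at 600 to 800 bp upstream; with intervals they go from 12.3% to values between 12.5% and 16.8% up to 1 kb and reach 27.8% at 1400 to 1600 bp upstream.

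Start sites that did fall were poor in CG beside other start sites with a region. The promoter table of RefSeq (GRCm38.p6) covers 16457 of 20665 autosomal protein-coding genes with 300 bases around each start, and 9361 of its promoters had a region within 250 bp of the start. Of these, 8.66% rose and 7.24% fell with summit ranks, the only unit used for promoter sequences. With intervals, 12.8% of all regions within 200 bp of a listed start rose and 3.68% fell. Promoters with up to 5 CG dinucleotides fell in 31.7% of 360 cases, those with 6 to 10 in 18.8% of 825, those with 11 to 20 in 7.71% of 2958, those with 21 to 30 in 4.20% of 3047 and those with 31 or more in 2.44% of 2171. The median number was 13 in fallen promoters, 22 in risen ones and 23 in those not called. Over all 20085 promoters of the table, with or without a region, it was 14. The order held at each strength. For promoters with up to 10 CG, the share fallen was 20.6% within the 5000 strongest, 24.3% at ranks 5000 to 20000 and 25.1% at ranks 20000 to 75000. For those with 21 or more it was 4.72%, 2.29% and 3.83%.

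A few promoters show the range, with each CG in capitals, 250 bases before to 50 after the start, 5′ to 3′ on the gene's strand. Amz1 (chr5:140723877-140724176, plus strand, 12 CG) is the named gene end whose fall lies on a listed start. Kpnb1 (chr11:97187843-97188142, minus strand, 35 CG) is the named rise on a start. Neurod6 (chr6:55681214-55681513, minus strand, 3 CG) and Neurod2 (chr11:98329596-98329895, minus strand, 16 CG) belong to related factors of excitatory neurons.
Amz1: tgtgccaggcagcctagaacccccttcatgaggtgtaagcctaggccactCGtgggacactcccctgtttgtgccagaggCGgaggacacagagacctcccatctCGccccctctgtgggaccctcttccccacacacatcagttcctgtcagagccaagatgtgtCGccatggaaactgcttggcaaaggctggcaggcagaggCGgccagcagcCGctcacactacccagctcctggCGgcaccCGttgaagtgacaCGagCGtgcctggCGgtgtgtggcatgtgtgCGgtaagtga
Kpnb1: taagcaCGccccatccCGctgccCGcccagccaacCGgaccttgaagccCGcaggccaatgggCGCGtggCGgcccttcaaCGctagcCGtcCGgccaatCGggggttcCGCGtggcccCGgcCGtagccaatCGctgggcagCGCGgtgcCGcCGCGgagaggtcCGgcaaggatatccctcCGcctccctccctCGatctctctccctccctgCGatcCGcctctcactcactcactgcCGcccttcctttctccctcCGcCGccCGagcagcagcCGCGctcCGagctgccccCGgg
Neurod6: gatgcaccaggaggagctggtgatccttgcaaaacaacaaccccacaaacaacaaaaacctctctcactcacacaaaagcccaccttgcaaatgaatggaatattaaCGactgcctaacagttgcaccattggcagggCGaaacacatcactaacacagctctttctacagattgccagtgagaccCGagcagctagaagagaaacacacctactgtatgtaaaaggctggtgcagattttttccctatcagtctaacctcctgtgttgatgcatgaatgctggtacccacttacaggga
Neurod2: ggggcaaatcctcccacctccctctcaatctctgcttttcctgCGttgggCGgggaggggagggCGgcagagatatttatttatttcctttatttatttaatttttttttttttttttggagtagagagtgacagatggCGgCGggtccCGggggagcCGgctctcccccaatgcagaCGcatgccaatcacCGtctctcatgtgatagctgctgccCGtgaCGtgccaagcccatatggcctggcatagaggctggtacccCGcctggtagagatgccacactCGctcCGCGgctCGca

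The Neurod6 promoter, with the fewest CG of these, ranked 17933 and 17385 with DMSO and 24297 and 22785 with FHT1015, without overlap. Its change of -0.41 (limma, adjusted p = 0.035) was lost under 7 of 15 other settings, with intervals among them (-0.11). The Neurod2 promoter ranked 16254 and 21863 against 17560 and 17336, with overlap and a value of 0.11 (adjusted p = 0.54).

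Letters of known motifs were also counted, on both strands. CAGCTG, an E-box of the kind bound by basic helix-loop-helix factors, is in 15.6% of all 20085 promoters of the table and in 14.9% of the 9361 with a region. Of promoters with CAGCTG, 12.5% fell, against 6.31% of those without. The difference was present in each CG class: 30.8% against 20.4% with up to 10 CG, 13.2% against 6.75% with 11 to 20, and 5.31% against 3.19% with 21 or more. For CAGATG, the E-box of neuronal factors, in 14.6% of all promoters, 11.4% against 6.75% fell, and the median numbers of CG were 18 and 23. Within CG classes this difference was smaller: 25.7% against 22.0% with up to 10 CG, 8.64% against 7.57% with 11 to 20, and 6.11% against 3.25% with 21 or more. Of promoters with the NRF1 motif, in 1.34% of all, 13.4% of 201 rose against 8.56% of the rest, and 2.99% fell against 7.34%. For TGACTCA (AP-1), in 4.70% of all, 10.6% against 7.14% fell. For TGACGTCA (CRE, 2.30% of all), 4.91% against 7.33% fell. For TATAAA (12.7% of all), 8.76% against 7.14% fell, and for CCAAT (38.1% of all), 8.17% against 6.66% fell. The median numbers of CG with and without the motif were 26 and 22 for NRF1 and 17 and 22 for TGACTCA. For TGACGTCA they were 23.5 and 22, for TATAAA 16 and 22, and for CCAAT 20 and 23. Only the E-boxes were split by CG class, so motif and CG cannot be told apart for the others. A match describes letters only, and these shares were not tested.

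With summits, regions of cortical transcription factors, progenitor markers and oligodendrocyte lineage genes were more often called up than other regions of their kind. No list was tested as such, and counts are set beside those of all regions of the kind. Of 66 gene end regions at cortical neuron transcription factors, 25 rose and 1 fell, a median change of 0.38 against 0.16 at all gene ends. Of their 484 distal regions, 119 rose and 86 fell, with a median of 0.14 against -0.16 over all distal regions. With intervals these counts were 22 and 0 at gene ends, where 15.1% of all regions rose and 3.28% fell. Among distal regions they were 121 and 34, where 18.9% of all rose and 16.4% fell. Progenitor markers had 17 risen and 1 fallen of 46 gene end regions (37.0% and 2.17%, against 18.4% and 6.25% at all gene ends). Of their 162 distal regions 39 rose and 37 fell (24.1% and 22.8%, against 11.0% and 33.7% of all distal regions). With intervals 10 of the 46 gene end regions of progenitor markers rose and 0 fell. Of the 162 distal ones 32 rose and 12 fell with intervals, so the share risen was near the 18.9% of all distal regions. Of 21 gene end regions of oligodendrocyte lineage genes, 11 rose and 1 fell (52.4% and 4.76%). With intervals 4 of these 21 rose and 1 fell, where 15.1% of all gene end regions rose and 3.28% fell.

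Distal regions of genes that serve mature neurons were called down about as often as distal regions at large. Of 166 distal regions of synapse and excitability genes, 16 rose and 59 fell (median -0.30). For excitatory neuron markers the counts were 17 risen and 64 fallen of 178 (-0.28), and for general neuron markers 17 and 56 of 157 (-0.26). These shares fallen, 35.5%, 36.0% and 35.7%, are near the 33.7% of all distal regions. With intervals, rises outnumbered falls over all distal regions too (18.9% rose and 16.4% fell). They did so for synapse and excitability genes (35 rose and 28 fell) and for excitatory markers (34 and 25). For general neuron markers 24 rose and 31 fell. For inhibitory neuron markers 23 rose and 34 fell of 119 (45 and 13 with intervals). Regions near vascular and meningeal genes fell more often, 21 of 40 with 4 risen and a median of -0.58. With intervals 12 of these 40 rose and 12 fell. Astrocyte markers had 12 risen and 27 fallen of 99, and microglia markers 7 and 12 of 38.

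Housekeeping genes had more rises than other regions of their kind, while BAF subunits and other remodelers had shares of rises near the rest at gene ends. Of 72 distal regions of housekeeping genes, 24 rose and 6 fell (33.3% and 8.33%, median 0.30), against 11.0% and 33.7% of all distal regions. Of their 51 gene end regions 15 rose and 2 fell (29.4% and 3.92%), against 18.4% and 6.25% of all gene ends. Ribosomal protein genes had 25 risen (29.4%) and 2 fallen of 85 gene end regions, and 13 and 10 of 65 distal ones (20.0% and 15.4%). BAF family subunits had 13 risen (22.0%) and 1 fallen of 59 gene end regions. Of their 157 distal regions 31 rose and 42 fell (19.7% and 26.8%). With summits that is a larger share risen and a smaller share fallen than among all distal regions. With intervals 29 of the 157 rose and 25 fell, near the 18.9% and 16.4% of all distal regions. For other chromatin remodelers the counts were 8 (22.2%) and 1 of 36 at gene ends, and 25 and 25 of 104 distal regions (24.0% each). With intervals 20 of these 104 rose and 15 fell, also near the shares of all distal regions. Of 124 gene end regions of early activity genes, 27 rose (21.8%) and 5 fell, and of their 357 distal regions 29 rose and 53 fell, a share fallen of 14.8%. The regions were drawn from depolarized libraries too, and 132 of these 357 had no summit in any of the 4 lists compared here, so they could not change. Over the other 225 the share fallen was 23.6%, against 34.0% of all distal regions present in at least 1 of the 4. Late activity genes had 7 risen and 5 fallen of 56 gene end regions (12.5% and 8.93%), and 22 and 42 of 149 distal ones (14.8% and 28.2%).

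Among the early activity genes themselves, Arc, which acts at synapses, fell and Bdnf, a neurotrophin, rose. The Arc region, 22 bp from an end of the gene, ranked 12650 and 15178 with DMSO and 20274 and 20689 with FHT1015, a change of -0.56 ± 0.15 (SE, limma, adjusted p = 0.0093) that was lost with intervals (-0.26, adjusted p = 0.14). It was also lost without the first DMSO library (-0.43, adjusted p = 0.096) or the second FHT1015 library (-0.55, adjusted p = 0.052). The Bdnf region ranked 74598 and 90209 against 57029 and 53057, a change of 0.58 ± 0.18 (adjusted p = 0.018). Groups did not overlap at either, and leaving out either FHT1015 library (adjusted p = 0.051 and 0.098) or the second DMSO library (0.14) ended the Bdnf call.

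The other 4 activity genes among the fixed genes, Fos, Junb, Nr4a1 and Npas4, did not pass the test at their gene end regions. The Fos promoter, of the AP-1 family, ranked 4215 and 3411 with DMSO and 2658 and 2884 with FHT1015, a value of 0.45 (limma, adjusted p = 0.19; 0.035 when only the 8 unstimulated libraries were fitted). Values were -0.32 at Junb (adjusted p = 0.19), -0.32 at the nuclear receptor gene Nr4a1 (0.077) and -0.29 at Npas4 (0.24), a weak region at 170230 and 185035 with DMSO and at 202824 or absent with FHT1015.

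Promoters of the target itself showed no called change. The Smarca4 region ranked 1601 and 1438 with DMSO and 1284 and 2326 with FHT1015 (-0.19, adjusted p = 0.61), and the Smarca2 region 200 and 492 against 457 and 462 (-0.55, adjusted p = 0.23). Actl6b, the neuronal subunit, ranked 8896 and 9989 against 8773 and 9863 (0.02 ± 0.11, adjusted p = 0.91). Groups overlapped at all 3. At 30 min the Smarca4 region rose by 1.00 (limma, adjusted p = 0.0049), with ranks of 2919 and 1799 against 1021 and 1280. The value at Smarca2 was -0.69 there (adjusted p = 0.10) and at Actl6b -0.29 (adjusted p = 0.030). The difference between 30 and 10 min did not pass at any of them (limma, adjusted p = 0.054, 0.90 and 0.21). Mef2c, a neuronal transcription factor, had a value of 0.47 (adjusted p = 0.10), and the gene end region of Rbfox3 0.27 (adjusted p = 0.33).

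The reference genes gave mixed values. Gapdh, a glycolytic enzyme, ranked 2488 and 2378 against 2191 and 1987 (0.22, limma, adjusted p = 0.38). The Actb region, 368 bp from an end of the actin gene, ranked 17762 and 14494 with DMSO and 41440 and 44688 with FHT1015, a fall of -1.42 (adjusted p = 5.0e-05). With intervals, the interval around it rose by 0.81 (adjusted p = 0.015), so the direction at Actb depends on whether the summit or the whole interval is ranked.

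Regions that fell at 10 min were lower in the separate libraries of 30 min. Of the 22632 falls, 96.0% were also called as falls at 30 min, when 65.1% of all regions were called (23.5% risen and 41.6% fallen), and their median change was -1.47 there against -0.87 at 10 min. Of these regions, 74.4% and 76.2% were in the 75000 strongest summits of the 30 min DMSO libraries and 20.7% and 21.0% in those of the FHT1015 libraries. Of the 9787 rises, 79.1% were called as rises at 30 min, with a median of 0.71 against 0.63. Both times were tested in 1 fit with a shared spread per region, so calls at both times are not independent. Over all 81005 regions the changes at 10 and 30 min, which come from different libraries, correlated at r = 0.83. That value describes regions and not samples.

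The change grew between 10 and 30 min at a part of the regions. The test of the difference (limma, 14.0% called) gave 10505 regions with a more negative and 849 with a more positive change at 30 min. Intervals were 41.7% fewer than with DMSO at 30 min. With lists of 75000 summits the difference was called at 3327 positive and 3450 negative regions, so its direction depends on the length of the lists. Leaving out the first FHT1015 or the second DMSO library gave 6942 and 6759 calls. At the Camk2b and Arc regions the change was larger at 30 min, by -0.97 and -0.78.

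Fewer regions were called in neurons depolarized for 10 min. There, 1109 regions rose and 4026 fell with FHT1015 (6.34% of those tested, 1.37% risen and 4.97% fallen), and intervals were 11.4% fewer (208819 ± 12594 against 235562 ± 3026, SD, n = 2 each, exact permutation p = 0.333). Of the 22632 falls in silenced neurons, 10.2% were called as falls in depolarized ones, with a median change of -0.21, and of the 9787 rises 4.70% were called as rises, with a median of 0.19. The correlation of changes over regions was 0.40. No libraries are shared by these comparisons, but both were tested in 1 fit with a shared spread per region.

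The difference between the states was called at 11.1% of regions, 6658 of them with a more positive change in depolarized neurons and 2364 with a more negative one. Regions over 100 kb from a gene differed mostly in the positive direction, with 1641 more positive and 49 more negative, while gene ends had 212 and 1341. This count depended on the setting. With intervals it was 773 (329 and 444), with ranks among regions 10609 (6112 and 4497), and leaving out any 1 of the 4 libraries lowered it to between 3150 (without the second FHT1015 library) and 4905 (without the first). At Fos the drug's effect differed between states by -1.47 (limma, adjusted p = 0.025). Depolarized ranks were 225 and 413 with DMSO and 585 and 647 with FHT1015, a fall of -1.01 (adjusted p = 0.036).

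**Figure D5:**
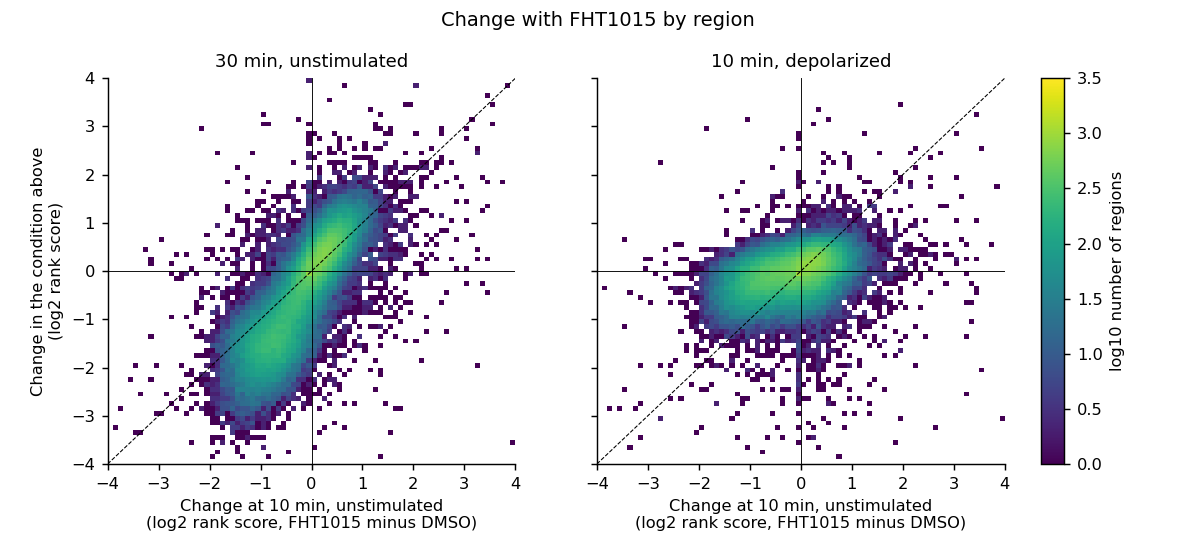
Change in log2 rank score with FHT1015 at 10 min in unstimulated neurons (x) against the change at 30 min (left) and in depolarized neurons at 10 min (right), as the number of regions per square (log10 colour scale); the dashed line marks equal changes, and 17 and 15 regions lie outside the range of 4. Left, the falls lie below the line (median -1.47 at 30 min against -0.87 at 10 min), and right they lie near a change of -0.21.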

How the data were processed

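ATAC-seq peak lists of 16 libraries, 8 groups of 2, were used on the 19 autosomes (build mm10, the same assembly as GRCm38). The submitters' processing notes name MACS2, Bowtie2, Picard, Trim Galore, bedtools, FastQC and SAMtools, without versions or order. Each line of the deposited lists is a summit within an interval. The authors' values are a fold enrichment (a ratio to background), a −log10 p, a −log10 q and a score that is the −log10 p times 10, truncated; the last 2 were not used. Read counts were not used here, so depth is known only as the background pileup, read from the even steps of the fold enrichment.

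Regions were windows of 250 bp to either side of the 75000 strongest summits of each library, 81017 in all, of which 81005 held by at least 2 libraries were tested. The rank score was log2 of 233609 (143439 for intervals) divided by the rank, and 0 beyond the list. It was fitted with limma 3.58.1 (R 4.3.3; trend, 1 mean per group, Benjamini-Hochberg, adjusted p under 0.05). With 2 libraries a group, the fit borrows the spread of the other groups. Libraries were not paired by replicate number, since the labels give no pairing. The correlation of replicate differences between the groups compared was 0.0064, which cannot exclude a shared source.

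The text names the 7 largest rises and falls at gene ends and among distal regions of the genes in 16 lists, called with the same sign in summits and intervals and without overlap, and the gene end regions of 16 fixed genes (Gad2 had none). Regions on chromosome 18 are not named, and 2 distal regions that met the rule are not reported here. The comparison and the lists were chosen with earlier results of these data known. Alternatives changed the unit, list length, window, libraries fitted, filter, replicate block and a covariate. Ranking among regions was chosen after seeing the data.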

Additional observations from a re-analysis of the deposited data

Results flagged for a closer look

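These regions were marked because the effect of FHT1015 at 10 min in silenced neurons differed, by the limma test of the difference over all regions, from that in depolarized neurons or from that at 30 min. The regions, other than those at fixed genes, were chosen for a large change at 10 min, which by itself favours a smaller change elsewhere, and the part of that choice was not tested.

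Depolarized minus silenced, the difference in log2 rank score was opposite to the rise at Atf2 (-3.26), Atp13a1 (-2.80), Fasn (-2.75), Ppp1r12a (-1.82), Nefm (-1.19) and Sox2 (-1.17). It was opposite to the fall at gene ends of R3hdml (1.79), Saa3 (1.71), Chia1 (1.60), Mymk (1.49), Mapkapk3 (1.15) and Faap20 (1.13), and at distal regions of Pdgfra (1.50), Kcna1 (1.20), Bcl11b (1.16), Rgs2 (1.10), Camk2b (1.09) and Rbfox3 (0.94). At Fos it was -1.47.

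At 30 min minus 10 min, the difference was negative at regions that fell, namely Mymk (-1.40), Mapkapk3 (-1.09), Camk2b (-0.97), Faap20 (-0.95) and Arc (-0.78). It was positive at Saa3 (1.11) and R3hdml (0.82), which had no summit in either FHT1015 list at 30 min and were weaker in the DMSO libraries of 30 min than in those of 10 min. At regions that rose, it was positive at Fabp7 (1.03) and negative at Ppp1r12a (-3.30), Atp13a1 (-1.92) and Atf2 (-1.91).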

How the results depend on the processing

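The number of called regions, 32419, was 6291 with lists of 30000 summits (29429 regions tested), 20549 with the number of summits as a covariate, and 20889 to 22601 with 1 of the 4 libraries left out. The replicate block gave 32122 calls, 9604 rises and 22518 falls, and since no pairing is known it serves as a check only. The difference between depolarized and silenced neurons, 9022 regions, was 773 with intervals, 2641 with lists of 30000 summits and 3150 to 4905 with 1 library left out, and 8640 with the block. The difference between 30 and 10 min, 11354 regions, was 6777 with lists of 75000 summits (3327 positive), 1530 with lists of 30000 (725 positive), 6759 to 7865 with 1 library left out and 10943 with the block. Except for fewer regions tested and fewer samples, the cause was not tested.

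Over 41 named regions and 15 settings, 590 comparisons could be made: 540 kept the direction and side of the threshold, 42 lost the call, 7 gained it and 1 reversed, Actb with intervals (0.81). The 540 is no measure of stability. Regions named for a rise or fall were chosen as called with intervals too, so keeping the call with that unit was fixed. At fixed genes without a call, staying uncalled counted toward the 540. The fall in intervals, summits and covered length and the gain at gene ends kept their sign under every setting run, all at the smallest exact p, which says nothing of stability. The lists hold no read count from which an interval could be computed, depth is known only as the background pileup, and 2 libraries a group limit the precision.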
